A study of Arabidopsis thaliana with 6 samples.

Results

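The genes described here encode the ribosomal proteins RPSa and RPS2 to RPS19 of the cytosolic 40S subunit, the small subunit of the Arabidopsis thaliana ribosome. They were taken by locus identifier from a fixed list of 60 genes, out of 33602 genes counted in each library. The 60 genes fall into 21 proteins, each encoded by 2 to 6 paralogs. Of the 60, 55 had enough counts to be tested.

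The small subunit binds messenger RNA, carries the channel through which the message is threaded, and reads codons against transfer RNA, while the large subunit forms peptide bonds. In plants nearly every ribosomal protein is encoded by several expressed paralogs, so a protein can be supplied by different genes in different cells. Mature pollen is known to carry ribosomes and stored messages made during its development, which serve protein synthesis when the pollen tube grows.

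RNA came from pollen of the Col accession. The growth notes give the plants as PAPS1 pLat52::RFP / paps1-3: a red fluorescent protein under the pollen promoter pLat52 is listed with the PAPS1 allele, opposite the mutant paps1-3 allele of this nuclear poly(A) polymerase gene. Pollen was flow sorted by that fluorescence into a paps1-3 group and a wild type group, with 3 libraries each, lettered A to C, so that wild type and mutant grains developed on plants of the same heterozygous genotype. The labels do not say which fraction was fluorescent, how pure the sorts were, how many plants were pooled, how old they were, or whether the letters mark separate plants; so the p-values reflect library-to-library spread alone, part or all of which may be technical.

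Gene counts per library ran from 19861313 to 41176647 in paps1-3 and from 31909683 to 37685541 in wild type. PAPS1 (AT1G17980) itself had 18, 9 and 3 counts in paps1-3 A to C against 32, 25 and 20 in wild type A to C. Its log2 fold change was −2.61 ± 0.57 (SE; edgeR adjusted p = 0.000273), so its direction matched the labels, at counts near the limit of detection. Vegetative-cell markers of pollen were abundant in all 6 libraries, as the tissue label says, but less so in paps1-3: the summed level of the 6 listed genes was 40320 to 46370 CPM in wild type and 12050 to 14480 CPM in paps1-3, where CPM is the count scaled to 1e6 counts of the TMM-scaled library. TMM scaling sets the bulk of genes equal between libraries, with factors of 1.47 to 1.69 for paps1-3 libraries and 0.612 to 0.672 for those of wild type. Per 1e6 counts of the raw totals, the vegetative-cell sums were closer, at 27090 to 29060 in wild type and 18910 to 21390 in paps1-3. Going from library totals to TMM lowered the median log2 fold change of all genes by 1.25. Each change below is therefore relative to that shift, and the direction under library totals is given where it differs.

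The 40S genes took a larger part of the transcript pool in paps1-3 pollen. They drew 11343, 14563 and 7955 counts in paps1-3 A to C, against 1924, 2006 and 2143 in wild type A to C. As a share of all gene counts this was 0.0354% ± 0.0046 in paps1-3 (mean ± SD of 3 libraries) against 0.00595% ± 0.00023 in wild type, a ratio of 5.96. With TMM scaling the summed level was 232 ± 44.5 CPM in paps1-3 and 91.7 ± 1.1 CPM in wild type, a ratio of 2.53. No paps1-3 library came within reach of a wild-type library on the share of counts. The number of 40S genes with at least 10 counts was 56 ± 1 in paps1-3 and 25 ± 1 in wild type. The number of all genes at that level was not compared. Of all genes, 9839 to 9955 were used to compare pairs of wild-type libraries, against 14841 to 19381 for pairs of paps1-3 libraries. More genes were thus detected in paps1-3 at large, and the 40S number cannot show a gain particular to these genes. The 40S values are shares within each library: fewer cells of a type and less RNA per cell cannot be told apart in bulk pollen.

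Most 40S genes rose, and a few fell. By edgeR's quasi-likelihood test with Benjamini-Hochberg adjustment over all genes tested, 42 of the 55 tested genes were higher in paps1-3, 4 were lower and 9 were not called. Over all 14273 genes tested, 42.3% were higher and 29.9% lower. The median log2 fold change of the 55 genes was 3.24, against 0.37 for all genes tested. More than 4-fold increases were found for 35 of the 55 (63.6%), against 25.4% of all genes tested, and 21 of the 35 exceeded 16-fold. The CPM of all 3 paps1-3 libraries lay above all 3 of wild type for 41 of the 55 genes and below them for 5, against 44.0% and 31.5% of all genes tested. By library totals 51 of the 55 were higher, 1 was lower and 3 were not called, where 70.3% of all genes tested were higher and 9.70% lower.

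The size of these counts has to be read against the filter on low counts. Of the 55 genes, 27 reached the filter level in paps1-3 libraries alone and so had to differ in level, and 26 of these were called higher. Of all 3594 genes that passed in this way 3129 were called higher, so most genes of this class were called higher whatever they encode. The median log2 fold change was 4.62 for the 27 genes and 2.98 for all genes of the class. Among the other 28 of the 55 genes, which had a wild-type library at the filter level (0.288 CPM of the raw totals), 16 were higher, 4 lower and 8 not called. In the same class of all 10679 genes 27.2% were higher and 40% (4273) lower. Most members were rare transcripts: 36 of the 55 had a mean level under 3 CPM, of which 29 were higher and 1 lower. Of all tested genes at that level 53.5% were higher and 12.3% lower. Another 17 members lay between 3 and 10 CPM, of which 13 were higher and 2 lower. There 37.3% of all tested genes were higher and 38.9% lower. Both genes above 10 CPM, AT2G17360 for RPS4 and AT5G41520 for RPS10, were not higher by TMM, though both were by library totals.

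**Figure D1:**
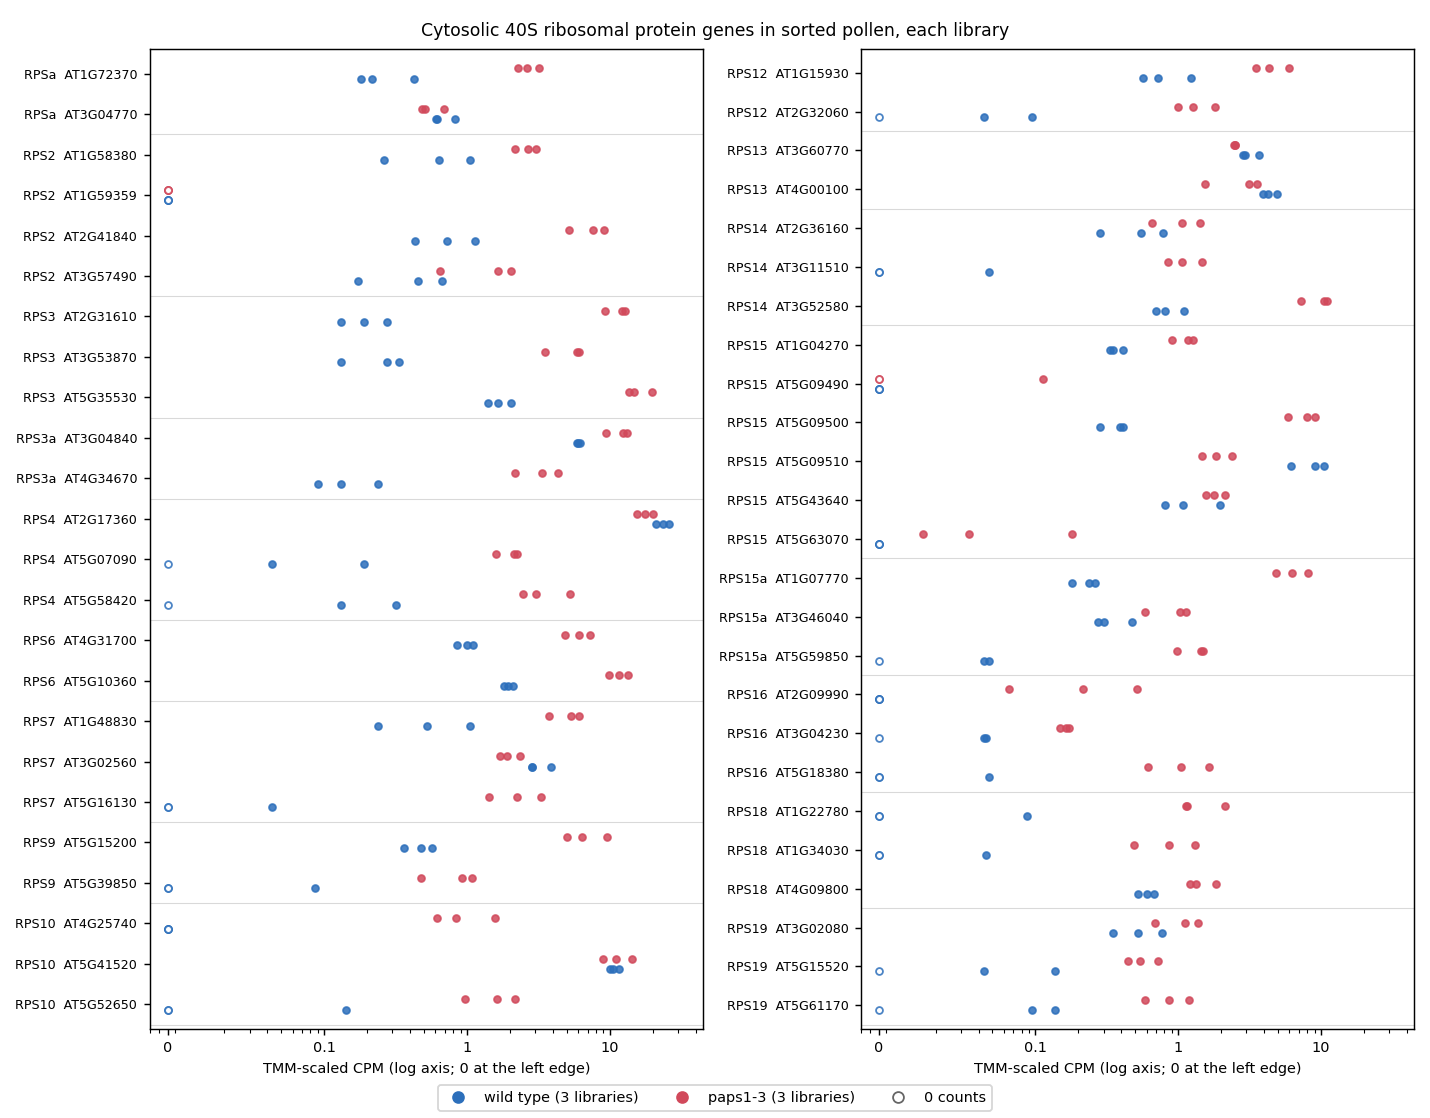
Level of 49 of the genes (17 proteins) in every library, as TMM-scaled CPM on a log axis with 0 at the left edge; points are single libraries, open circles are libraries with 0 counts, and lines separate proteins. Paralogs of 1 protein that stood far apart in wild type, such as the 3 RPS4 genes, lie closer together in paps1-3, and AT5G09510 (RPS15) is the gene with the clearest fall.

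The proteins are taken in turn by where they sit in the subunit, and the counts of each group stand beside 42.3% higher and 29.9% lower among all genes tested. Each group holds genes that reached the filter level in paps1-3 libraries alone, whose direction was fixed by the filter. Among those given below with a log2 fold change are AT2G31610, AT1G72370, AT4G34670, AT5G07090, AT5G58420, AT1G07770, AT1G04270 and AT5G09500. The groups were not split by this class, so their counts cannot show whether position in the subunit mattered. RPS2, RPS3 and RPS9 line the channel through which the message enters, and RPS10 lies close to it. Their 12 genes gave 11 tested genes, of which 10 were higher, 0 lower and 1 not called, with a median log2 fold change of 3.87. RPS3 had the highest summed level of any 40S protein in paps1-3, 32.5 ± 6.1 CPM against 2.14 ± 0.18 in wild type. Its gene AT5G35530 was at 13.6, 14.8 and 19.7 CPM in paps1-3 and at 1.66, 1.41 and 2.04 CPM in wild type. All paps1-3 libraries lay above all wild-type libraries, and the log2 fold change was 3.22 ± 0.21 (SE; edgeR adjusted p = 1.79e-12). The paralog AT2G31610 (named here because of its values) was at 9.18, 12.1 and 12.7 CPM in paps1-3 against 0.189, 0.273 and 0.1301 CPM in wild type, a log2 fold change of 5.82 ± 0.30. As background, RPS3 is also known in animals as a DNA repair endonuclease.

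RPS2 went from 1.84 ± 0.99 to 11.3 ± 3.0 CPM in sum, and its 3 tested genes were all called higher. The groups of AT3G57490 overlap (log2 fold change 1.74), and its call was lost without paps1-3 B (1.37, edgeR adjusted p = 0.0519). The fourth, AT1G59359, had 0 counts in every library: all of its 99-base windows also occur in other RPS2 genes (AT1G58684, AT1G58983 and AT1G58380), and reads placed at several positions were not counted to genes. AT1G58380 shares 11.6% of its windows in the same way, so both levels are uncertain. RPS9 went from 0.498 ± 0.117 to 7.79 ± 2.39 CPM, with both genes called higher.

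In RPS10 the dominant paralog was not called, while both rare paralogs were higher. RPS10B (AT5G41520) was at 8.90, 11.01 and 14.3 CPM in paps1-3 and at 10.04, 11.5 and 10.6 CPM in wild type. The groups overlap, and the log2 fold change of 0.08 ± 0.18 was not called (edgeR adjusted p = 0.678; 1.32 and called by library totals). AT4G25740 had 38, 51 and 46 counts in paps1-3 and 0 in each wild-type library, so that it was at least 19.7-fold higher, with a floor of 3 counts over the wild-type group. AT5G52650 had 59, 98 and 63 counts in paps1-3 and 3, 0 and 0 in wild type, a ratio of 32.0 on the TMM-scaled library sizes with a 95% exact binomial interval of 10.8 to 156. Such intervals cover counting error only, because amplified reads without molecular identifiers are not independent molecules.

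RPSa, RPS3a and RPS14 lie around the site where the message leaves and on the platform beside it. Of their 7 genes 5 were higher, 0 lower and 2 not called, with a median log2 fold change of 3.28. RPSa, the plant relative of the animal laminin receptor precursor, changed its leading gene. P40 (AT1G72370) was at 2.28, 2.61 and 3.19 CPM in paps1-3 and at 0.426, 0.182 and 0.217 CPM in wild type. Its log2 fold change was 3.28 ± 0.39, but it reached the filter level in paps1-3 libraries alone, which fixed its direction. RPSAb (AT3G04770) was at 0.683, 0.510 and 0.480 CPM in paps1-3 against 0.615, 0.818 and 0.607 CPM in wild type, which overlap (log2 fold change −0.27 ± 0.50, not called, and 0.98, not called, by library totals).

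AT3G04840 held 97.6% ± 1.2 of the RPS3a level per kilobase in wild type and 79.1% ± 3.7 in paps1-3. It was at 9.42, 13.2 and 12.4 CPM in paps1-3 and at 5.92, 5.997 and 6.20 CPM in wild type. The groups did not overlap, and its log2 fold change of 0.95 ± 0.18 (edgeR adjusted p = 4.40e-05) was the smallest among the 42 genes called higher. The other RPS3a gene, AT4G34670, rose by 4.39 ± 0.44 on the log2 scale and is named after its values were seen.

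In RPS14, 2 of 3 genes were called higher. The third, AT2G36160, was at 0.651, 1.41 and 1.06 CPM in paps1-3 against 0.284, 0.545 and 0.781 CPM in wild type (log2 fold change 0.94 ± 0.48, edgeR adjusted p = 0.0824). Its groups overlap, and it was called by library totals (2.18) and without paps1-3 A (1.23).

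RPS4, RPS6, RPS7, RPS13 and RPS15a belong to the body of the subunit. Of their 13 genes 9 were higher, 3 lower and 1 not called, with a median log2 fold change of 2.61, where 42.3% of all genes tested were higher and 29.9% lower.

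In RPS4, AT2G17360 was the most abundant 40S gene of wild-type pollen. It was at 15.6, 19.9 and 17.5 CPM in paps1-3 and at 25.9, 21.1 and 23.6 CPM in wild type. The groups did not overlap by TMM and the gene was called lower (log2 fold change −0.41 ± 0.15, edgeR adjusted p = 0.0144), but by library totals it was called higher (0.83). The call was lost without paps1-3 A (adjusted p = 0.0689 by edgeR) and with a filter of 1 CPM in 3 libraries. Its paralogs AT5G07090 and AT5G58420 both rose, by 4.64 ± 0.59 and 4.51 ± 0.51 on the log2 scale. These values rest on 5 and 10 wild-type counts: AT5G07090 was at 6.23 without wild type A and 4.02 without wild type B, and AT5G58420 at 3.90 and 5.58. Summed over the 3 genes, RPS4 was at 23.7 ± 2.3 CPM in wild type and 23.2 ± 3.1 CPM in paps1-3. Per 1e6 counts of the raw totals it was 2.31-fold higher in paps1-3, at 35.5 ± 2.3 against 15.4 ± 1.6.

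RPS7 changed its leading gene. AT3G02560 was at 1.69, 1.89 and 2.33 CPM in paps1-3 and at 3.83, 2.86 and 2.86 CPM in wild type (log2 fold change −0.70 ± 0.26, edgeR adjusted p = 0.0183, called lower). By library totals its log2 fold change was 0.54 and not called, and the call was lost without paps1-3 A (−0.58) or wild type A (−0.62). AT1G48830 was at 3.76, 5.29 and 6.07 CPM in paps1-3 and at 0.237, 1.05 and 0.520 CPM in wild type, a log2 fold change of 3.05 ± 0.35 (3.64 without wild type B). AT5G16130 had 87, 135 and 96 counts in paps1-3 and 0, 0 and 1 in wild type, a ratio of 138.5 with a 95% exact interval of 24.7 to 5489. All 3 RPS7 genes overlap an antisense gene in the annotation, and the libraries do not mark strand, so reads of the partner genes cannot be told apart from theirs.

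RPS13 was the protein whose summed level was lowest in paps1-3 relative to wild type, at 5.21 ± 1.10 against 7.49 ± 0.67 CPM by TMM. By library totals its sum was higher in paps1-3, at 7.95 ± 1.18 against 4.85 ± 0.33 per 1e6 counts, a ratio of 1.64. RPS13A (AT4G00100), whose mutant has pointed leaves, was at 1.53, 3.53 and 3.12 CPM in paps1-3 and at 4.88, 3.91 and 4.25 CPM in wild type. It was called lower (log2 fold change −0.68 ± 0.27, edgeR adjusted p = 0.0264), but not without paps1-3 A (−0.35), without wild type A (−0.65) or by DESeq2 (−0.70), and was at 0.55 by library totals. It overlaps the gene AT4G00090 on the same strand, where reads over both genes count as ambiguous. AT3G60770 was at 2.44, 2.52 and 2.50 CPM in paps1-3 against 2.94, 2.82 and 3.69 CPM in wild type, which do not overlap, and was not called (−0.34 ± 0.24, edgeR adjusted p = 0.207; 0.92 and called higher by totals).

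RPS6, the substrate of S6 kinase downstream of the TOR kinase, had both of its genes called higher by nearly the same amount. The gene named RPS6 in RefSeq (AT4G31700) had a log2 fold change of 2.61 ± 0.26 and EMB3010 (AT5G10360) 2.57 ± 0.20, both named after their values were seen. In RPS15a, all 3 genes were called higher and the leading gene changed. RPS15AD (AT3G46040) was at 1.03, 1.13 and 0.583 CPM in paps1-3 and at 0.473, 0.273 and 0.304 CPM in wild type, a log2 fold change of 1.40 ± 0.51 (edgeR adjusted p = 0.0179). That call was lost by DESeq2, without a filter on low counts, and without paps1-3 B, wild type B or wild type C (log2 fold changes 1.18 to 1.35). RPS15A (AT1G07770) was at 4.83, 6.25 and 8.09 CPM in paps1-3 against 0.237, 0.182 and 0.260 CPM in wild type, a log2 fold change of 4.79 ± 0.34.

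RPS12, RPS15, RPS16, RPS18 and RPS19 belong to the head and its beak. Of their 17 genes 13 were tested: 10 were higher, 1 lower and 2 not called, with a median log2 fold change of 3.18. Most of the 10 reached the filter level in paps1-3 libraries alone. RPS15, whose tail reaches towards the decoding centre, has 6 genes, and 3 of them (AT5G09490, AT5G09500 and AT5G09510) carry consecutive locus identifiers on chromosome 5. AT5G09510 was at 1.46, 2.38 and 1.85 CPM in paps1-3 and at 6.15, 9.04 and 10.4 CPM in wild type. It fell by 2.16 on the log2 scale (SE 0.24, edgeR adjusted p = 1.67e-08) and was the only 40S gene lower by library totals too (−0.92), and its groups did not overlap.

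Its neighbour AT5G09500 was at 5.91, 8.02 and 9.01 CPM in paps1-3 and at 0.284, 0.409 and 0.390 CPM in wild type. It rose by 4.38 ± 0.30 on the log2 scale, but reached the filter level in paps1-3 libraries alone, which fixed its direction. The 2 genes lie on the same strand, and their annotated transcripts are separated by 89 bases. AT1G04270, which RefSeq names RPS15, was called higher (1.60 ± 0.47) and also reached the filter level in paps1-3 libraries alone. AT5G43640 was at 2.13, 1.56 and 1.78 CPM in paps1-3 against 0.805, 1.95 and 1.08 CPM in wild type and was not called (0.51 ± 0.34; 1.76 and called by totals). AT5G09490 and AT5G63070 had too few counts to test: 7, 0 and 0 counts and 1, 11 and 1 counts in paps1-3, and 0 in every wild-type library.

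RPS18 went from 0.647 ± 0.111 to 3.82 ± 0.99 CPM in sum, and its 3 genes were called higher. RPS18C (AT4G09800) was at 1.33, 1.20 and 1.85 CPM in paps1-3 against 0.521, 0.682 and 0.607 CPM in wild type, a log2 fold change of 1.26 ± 0.39 (edgeR adjusted p = 0.00658) that was not called without paps1-3 C (0.99). PFL (AT1G22780), named for the pointed first leaf of its mutant, had 70, 70 and 62 counts in paps1-3 and 0, 0 and 2 in wild type, a ratio of 44.0 with a 95% exact interval of 12.02 to 366. AT3G02080 (RPS19) was at 0.683, 1.12 and 1.37 CPM in paps1-3 against 0.521, 0.772 and 0.347 CPM in wild type and was not called (0.93 ± 0.47, edgeR adjusted p = 0.0792). It was called by totals (2.15) and without paps1-3 A (1.19); the other 2 RPS19 genes were called higher.

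RPS16 was the rarest 40S protein of wild-type pollen, with 3 counts over 3 genes and 3 libraries. AT5G18380 had 38, 64 and 48 counts in paps1-3 and 1, 0 and 0 in wild type, a ratio of 65.4 with a 95% exact interval of 11.6 to 2598. AT2G09990 had 4, 13 and 15 counts in paps1-3 and 0 in wild type, at least 4.66-fold higher by the same floor. AT3G04230 had 10, 9 and 5 counts against 0, 1 and 1. RPS12 went from 0.887 ± 0.385 to 5.96 ± 1.61 CPM in sum, with both genes called higher.

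**Figure D2:**
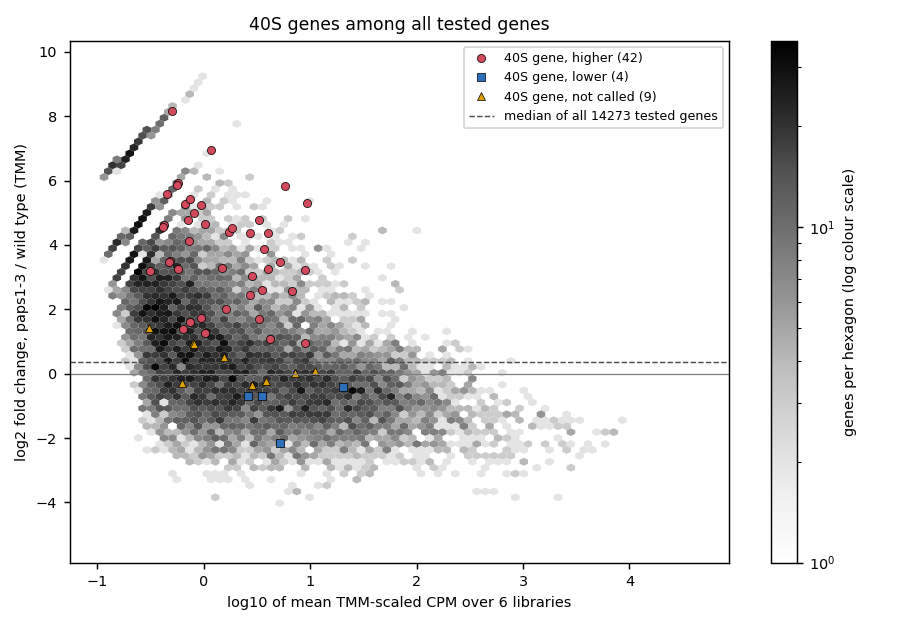
Log2 fold change (paps1-3 over wild type, TMM scaling) against log10 of the mean CPM over 6 libraries; hexagons shade the number of all tested genes, symbols are the 55 tested 40S genes by call, diagonal streaks at the left are genes with few wild-type counts, and the dashed line is the median of all genes (0.37). The 42 genes called higher stand above that line at low levels, and the 2 genes with a mean above 10 CPM lie close to 0.

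Summed over paralogs, the 21 proteins became more alike in level. Over all tested genes, too, the change fell with level. Their median log2 fold change was 1.31 below a mean of 3 CPM and −0.92 at 30 CPM or more. The values below therefore cannot show a narrowing particular to 40S genes. In wild type the summed levels ran from 0.0454 CPM (RPS16) to 23.7 CPM (RPS4), a span of 523-fold, and in paps1-3 from 1.53 to 32.5 CPM, a span of 21.2-fold. The summed level was higher in paps1-3 for 19 proteins and lower for 2, RPS4 and RPS13, with ratios of 0.977 and 0.696. By library totals it was higher for all 21, with ratios of 2.31 for RPS4 and 1.64 for RPS13. Among the small increases in summed level were those of RPS15 (1.20) and RPS10 (1.302), which like RPS4 hold an abundant gene of wild-type pollen. Within the 60 genes, the 4 most abundant held 54.5% ± 1.1 of all 40S counts in wild type and 27.7% ± 1.0 in paps1-3. The gene with most counts was AT2G17360 in every wild-type library, at 28.4%, 23.1% and 25.3% of 40S counts.

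Per kilobase of transcript, the 3 highest genes in wild type were AT2G17360 with 19.4 ± 2.0, AT5G41520 with 10.6 ± 0.7 and AT5G09510 with 6.68 ± 1.70 CPM per kilobase, in that order and apart by more than their spread. In paps1-3, AT2G17360 with 14.6 ± 1.8, AT5G35530 with 13.7 ± 2.8 and AT5G41520 with 11.3 ± 2.7 CPM per kilobase were among the highest and differed by less than their spread.

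The second question is how paralogs of the same protein stood to each other, which needs no scaling between libraries. Levels of paralogs are compared as CPM per kilobase of transcript, as a share of the protein's sum. In 8 proteins another paralog led in paps1-3, among them RPSa, RPS7, RPS15, RPS15a, RPS16 and RPS18. For RPS16 the wild-type order rests on 3 counts and cannot be read. With raw counts in place of levels per kilobase the number was 6, and RPS18 kept its leading gene. In RPS13 the 2 genes were near equal in paps1-3, with AT4G00100 at 49.3% ± 10.7.

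The order in RPS15 rests on 702 wild-type counts, of which AT5G09500 had 24. AT5G09510 held 69.0%, 61.6% and 74.3% of RPS15 in the wild-type libraries and 7.66%, 10.6% and 7.54% in the paps1-3 libraries. AT5G09500 held 5.97%, 5.23% and 5.23% in wild type and 57.9%, 66.6% and 68.9% in paps1-3. In RPS7, AT3G02560 held 82.9% ± 10.9 in wild type and 20.2% ± 2.6 in paps1-3, and in RPS15a, AT3G46040 held 70.8% ± 6.3 and 17.3% ± 6.7. In RPSa, AT3G04770 held 72.7% ± 11.2 in wild type and 18.4% ± 5.3 in paps1-3. None of these shares overlapped between genotypes, but those of RPS7, RPS15a and RPSa rest on only 251, 40 and 63 wild-type counts.

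In RPS18 the order also rests on few wild-type counts, 43 in all. AT4G09800 held 93.6% ± 6.4 of RPS18 in wild type and 37.7% ± 3.5 in paps1-3, beside 38.5% ± 7.4 for AT1G22780, which differ by less than their spread.

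**Figure D3:**
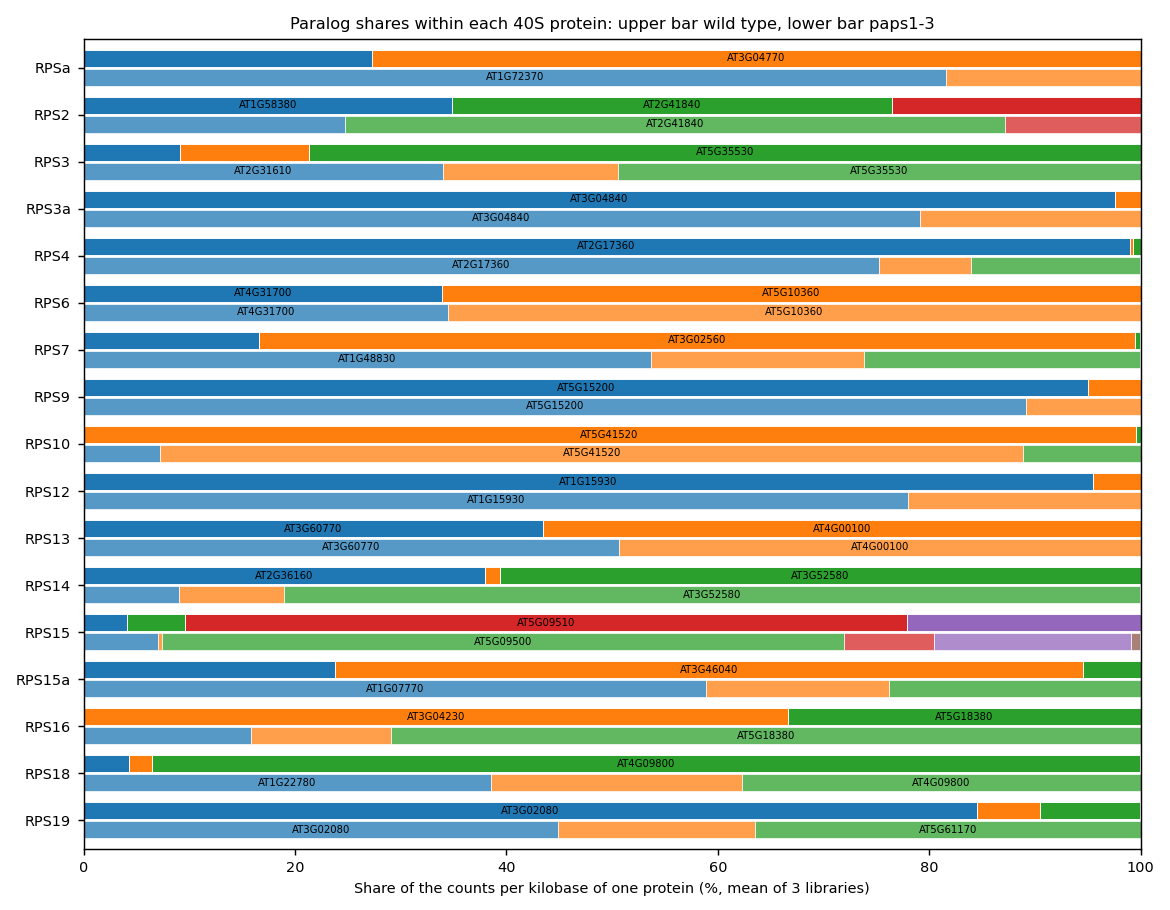
Share of each paralog in the summed CPM per kilobase of its protein (percent, 17 proteins), as mean of 3 libraries, with wild type in the upper bar and paps1-3 in the lower bar of each protein; colours only separate paralogs. In wild type a leading gene fills most of the bar for RPS4, RPS10, RPS3a and RPS18, and in paps1-3 the same bars are divided among more genes. The leading gene of wild type lost share in 18 of all 21 proteins. RPS2 and RPS14 go the other way, from 41.6% in wild type to 62.4% in paps1-3 and from 60.6% to 81.0%. The RPS16 bar of wild type rests on 3 counts.

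For each pair of tested paralogs, the log2 ratio of their counts was taken in every library after adding 0.5 to each count. The ratio did not overlap between genotypes in 39 of 50 pairs (78.0%). Over all pairs of tested genes, related or not, this share was 70.4%, so a count of 39 is near the background. The median size of the difference was 2.48 for the 50 pairs and 1.91 for all pairs of tested genes, on the log2 scale. With 3 against 3 libraries the two-sided exact permutation test cannot go below p = 0.1, which is p = 0.128 after Benjamini-Hochberg adjustment over the 50 pairs, so no pair could pass.

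The largest difference was that of AT3G02560 over AT5G16130 (RPS7). The log2 ratio was 7.35, 6.99 and 5.47 in the wild-type libraries and 0.26, −0.23 and −0.49 in the paps1-3 libraries, where the wild-type value rests on 1 count of AT5G16130. The next was AT5G09500 over AT5G09510 (RPS15), at −4.33, −4.39 and −4.66 in wild type and 2.01, 1.75 and 2.27 in paps1-3, with at least 24 wild-type counts for each gene. The wild-type values were all below 0 and the paps1-3 values all above it, a difference of 6.47 on the log2 scale.

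The other 4 of the 6 largest differences set a leading gene against a rare paralog, AT2G17360 against AT5G58420 and AT5G07090 in RPS4 (−5.40 and −5.28) and AT5G41520 against AT4G25740 and AT5G52650 in RPS10 (5.32 for AT4G25740 over AT5G41520 and −5.05 for AT5G41520 over AT5G52650). The rare paralogs had 10, 5, 0 and 3 wild-type counts. At the other end, the ratio of the RPS6 genes was −0.98 ± 0.23 in wild type and −0.95 ± 0.07 in paps1-3, a pair chosen after its values were seen.

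**Figure D4:**
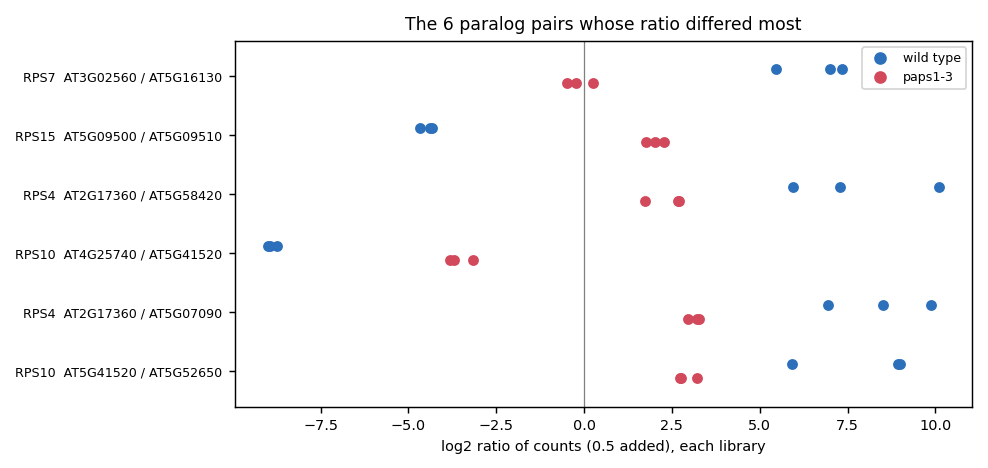
Log2 ratio of the counts of 2 paralogs in each library for the 6 pairs with the largest difference between genotypes; points are single libraries. In all 6 pairs the 3 paps1-3 points lie apart from the 3 wild-type points, and the AT5G09500 to AT5G09510 ratio lies below 0 in wild type and above 0 in paps1-3.

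Paralogs of a protein are close in sequence, which bears on how well reads can be told apart. Coding sequences of the 65 paralog pairs were 67.0% to 98.2% identical (median 84.7%). Despite this, 53 of the 60 genes had no 99-base window in common with a gene elsewhere, and the other 7 include AT1G59359 and AT1G58380 named above. AT1G07770, AT2G09990 and AT5G18380 shared 2.61% to 3.54% of their windows. In the annotation, 6 of the 60 genes overlap a gene on the same strand and 11 overlap an antisense gene. AT3G04770 (RPSa) and AT1G04270 (RPS15) are among the first. AT1G72370 (RPSa), AT4G09800 (RPS18) and AT5G59850 (RPS15a) are among the second. The limits given above for RPS13A and RPS7 hold for the levels and shares of these genes too.

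The sequence before the start of each gene was read from RefSeq's TAIR10.1 assembly and annotation, since ribosomal protein promoters of plants are known for site II elements and telo-boxes, short motifs tied to expression in dividing cells. In the 250 bases before the annotated start, site II (TGGGCC or TGGGCT, either strand) was found for 37 of 60 genes (61.7%) and for 19.2% of 27438 nuclear protein-coding genes. These windows can run into exons of neighbouring genes. The telo-box (AAACCCTA, either strand) was found for 10 (16.7%) against 4.49%, and both motifs for 7 (11.7%) against 1.36%. A palindromic TGGGCCCA holds 2 overlapping site II matches, and a telo-box and a site II can share at most 1 base. Of the 83 site II matches, 69 lay within 100 bases of the start. Site II was present for 29 of the 42 genes called higher (69.0%) and for 8 of the other 18 (44.4%), and the telo-box for 7 and 3 (16.7% in each set). The other 18 were called lower, not called or not tested. Of the 5 untested genes among them only AT1G59359 held site II, so the shares do not compare tested genes alone.

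The stretches of 5 genes are given 5′ to 3′ on the gene's strand and end at the base before the annotated start. They are the RPS15 neighbours that moved in opposite directions, the RPS7 pair with the largest ratio difference, and the most abundant 40S gene of wild-type pollen. Stretches shorter than 250 bases stop at the nearest annotated exon of another gene. Capitals mark site II matches and, in AT5G16130, also the telo-box.
AT5G09500 (RPS15), chr5:2954919-2955007, minus strand: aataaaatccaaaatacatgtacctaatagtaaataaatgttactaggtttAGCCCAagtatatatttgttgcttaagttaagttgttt
AT5G09510 (RPS15), chr5:2956684-2956933, minus strand: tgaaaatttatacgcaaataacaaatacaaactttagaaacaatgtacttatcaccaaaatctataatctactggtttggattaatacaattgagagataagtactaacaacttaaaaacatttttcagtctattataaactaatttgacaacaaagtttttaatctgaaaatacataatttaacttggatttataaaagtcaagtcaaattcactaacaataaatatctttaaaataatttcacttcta
AT3G02560 (RPS7), chr3:541524-541707, plus strand: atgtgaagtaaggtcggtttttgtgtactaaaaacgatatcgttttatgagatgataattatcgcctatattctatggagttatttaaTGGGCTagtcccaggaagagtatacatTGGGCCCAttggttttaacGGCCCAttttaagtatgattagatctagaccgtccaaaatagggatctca
AT5G16130 (RPS7), chr5:5268171-5268420, plus strand: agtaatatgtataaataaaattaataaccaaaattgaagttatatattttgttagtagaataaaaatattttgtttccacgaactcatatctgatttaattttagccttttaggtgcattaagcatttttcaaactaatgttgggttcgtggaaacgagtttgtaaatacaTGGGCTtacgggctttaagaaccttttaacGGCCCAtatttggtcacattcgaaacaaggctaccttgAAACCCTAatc
AT2G17360 (RPS4), chr2:7546375-7546439, plus strand: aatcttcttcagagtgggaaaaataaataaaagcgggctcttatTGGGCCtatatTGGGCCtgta

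In these stretches AT5G09510, the gene that fell, held neither motif, and AT5G09500, its neighbour that rose, held 1 site II match 38 bases before its start; its whole 250-base window, which reaches into AT5G09510, held 2. Both RPS7 genes held site II, 4 matches in AT3G02560 and 2 in AT5G16130, although the first was called lower and the second higher. AT2G17360 had 2 matches, at 21 and 10 bases before its start. A match is a string of letters and not a shown site of binding.

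The remaining proteins of the small subunit, are RPS20 to RPS30 and RACK1. Of their 35 genes 30 were tested, 23 were higher and 2 lower (26 and 0 by library totals), with a median log2 fold change of 2.14. Among all genes tested 42.3% were higher and 29.9% lower, and 70.3% and 9.70% by totals. The 4 called genes with the smallest p all rose. AT5G02960 (RPS23) had 143, 176 and 98 counts in paps1-3 and 2, 0 and 1 in wild type. AT5G62300 (RPS20) had 120, 89 and 96 counts against 0, 0 and 1. AT4G39200 (RPS25) and AT5G28060 (RPS24) had log2 fold changes of 3.25 ± 0.32 and 2.90 ± 0.40.

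Of 19 genes for factors that assemble the subunit or regulate it, 9 were higher and 5 lower (13 and 1 by totals), with a median log2 fold change of 0.59. These counts are near the shares of all genes tested, 42.3% and 29.9% (70.3% and 9.70% by totals). The kinase genes whose products phosphorylate RPS6 were lower while both RPS6 genes were higher: S6K1 (AT3G08730) had a log2 fold change of −2.74 ± 0.14 (edgeR adjusted p = 2.54e-14; −1.49 by totals) and S6K2 (AT3G08720) −1.37 ± 0.14 (edgeR adjusted p = 7.83e-09; −0.11 and not called by totals). FIB2 (AT4G25630), a fibrillarin that methylates ribosomal RNA, had 55, 119 and 51 counts in paps1-3 and 0, 0 and 1 in wild type. EBP1 (AT3G51800), a regulator of growth, rose by 3.46 ± 0.42 on the log2 scale.

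**Figure D5:**
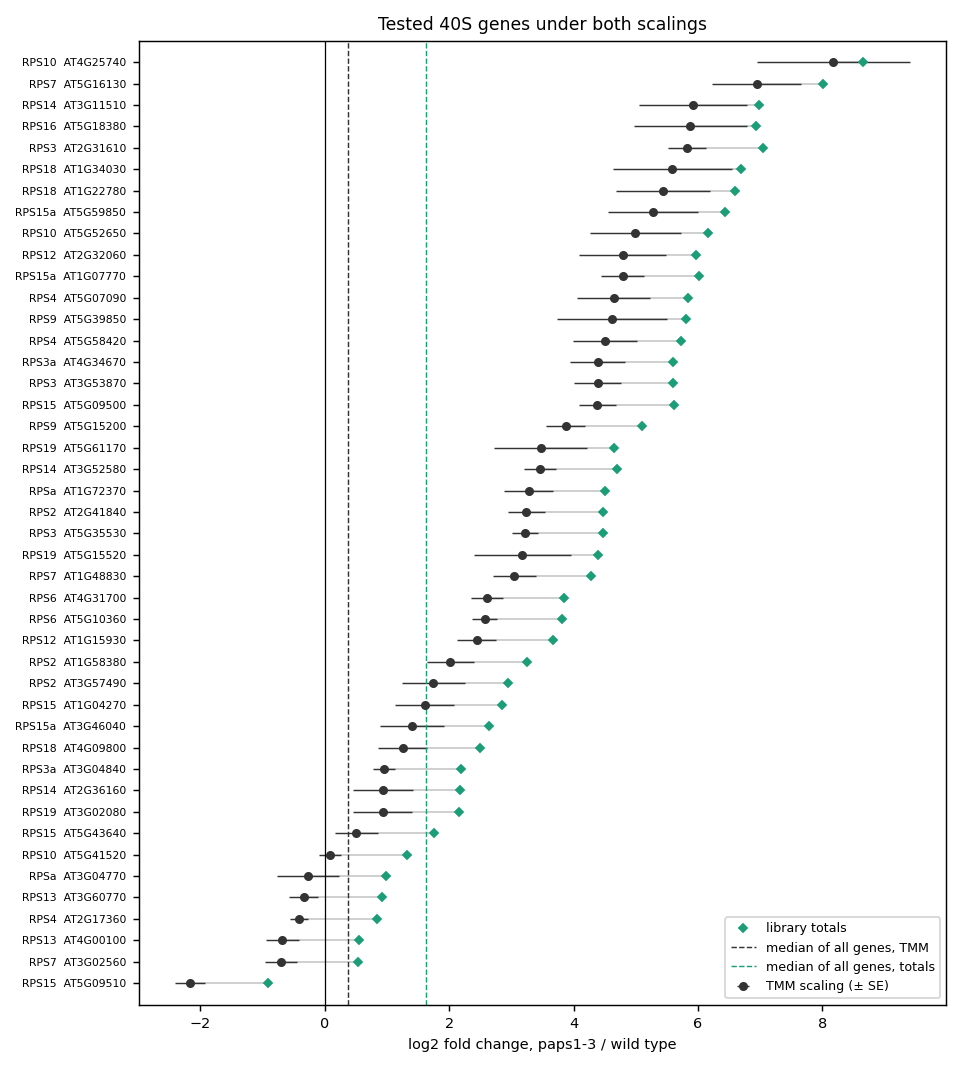
Log2 fold change (x axis) of 44 tested 40S genes (rows, ordered by the TMM value) with TMM scaling (circles, ± SE) and with library totals (diamonds); dashed lines are the medians of all genes under each scaling, 0.37 and 1.63. Totals move each gene to the right by about the shift of the median, and AT5G09510 is the gene left of 0 under both.

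Markers of the pollen cells and of other tissues moved with genotype beside these genes. Of 6 vegetative-cell markers 0 were higher and 5 lower, and by totals 1 was higher and 4 lower. Of 5 sperm markers 4 were tested and all 4 were lower (1 by totals), with summed levels of 318 to 368 CPM in wild type and 91.0 to 122 CPM in paps1-3. Of 7 tapetum markers 1 was tested, which was lower by TMM and not called by totals, and their sums were 0.909 to 1.21 CPM in wild type and 0.514 to 3.74 CPM in paps1-3; 3 were at 0 in every wild-type library, and 1 in every library. Of 6 leaf markers 2 were tested, with 1 higher (PSBO1, AT5G66570) and 1 lower (1 and 0 by totals), and their sums were 5.91 to 6.11 CPM in wild type and 2.64 to 3.57 CPM in paps1-3; 2 were at 0 in every wild-type library. By library totals the leaf sums overlapped, at 3.74 to 4.01 in wild type and 3.88 to 5.27 in paps1-3 per 1e6 counts. The tapetum sums were 0.611 to 0.743 and 0.755 to 6.27, and the sperm sums 203.7 to 243.4 and 133.6 to 191.1. The part of these cell types in the 40S changes was not tested.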

How the data were processed

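Per the submitters' processing notes, reads were aligned with TopHat2 and counted per gene with HTSeq on TAIR10. Program versions, options and the annotation used were not given in those notes. Per the labels' protocols, total RNA was amplified with the Ovation RNA-seq system v2 and read in pairs. The deposited values are raw counts per gene, and rows for reads assigned to no gene were kept out of library sizes and tests. They held 1.18% to 1.88% (no feature), 2.24% to 2.64% (ambiguous) and 5.30% to 11.6% (several positions) of all counted reads.

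From these counts, edgeR 4.0.16 in R 4.3.3 was run on the whole table: TMM factors, filterByExpr (minimum count 10, minimum total 15), robust quasi-likelihood test, genotype as the only term, and Benjamini-Hochberg adjustment over 14273 genes with calls below 0.05. The fit was tested on simulated data with known changes. Paralog ratios used raw counts plus 0.5 and a two-sided exact permutation test over 6 libraries. Library totals, DESeq2 1.42.0, other filters, the library letter as a block, and leaving out each library were the alternatives.

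Gene models, 99-base windows and promoters were taken from RefSeq TAIR10.1, and coding identity from global alignment (Biopython 1.88). The files give identifiers without coordinates.

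The members, lists and tests were chosen with earlier results of these data known. Full values are given for members called lower or not called, the largest and smallest increases among abundant genes (average log2 CPM of at least 3, which 3 of the genes called higher reached), proteins whose leading paralog differs, the 6 pairs with the largest ratio difference, and the 4 most abundant genes per kilobase; from the other lists, up to 4 called genes. Genes outside this rule are marked where they appear. The genes of 4 proteins enter all counts and medians over the 60 genes but are otherwise not reported here.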

Additional observations from a re-analysis of the deposited data

Results flagged for a closer look

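Reads that the counting program set aside because they were placed at several positions made up 10.01%, 7.90% and 11.6% of all counted reads in the paps1-3 libraries (mean 9.84%) and 6.14%, 5.30% and 5.32% in the wild-type libraries (mean 5.59%). This category lies outside the gene counts and did not overlap between genotypes, being higher in all 3 paps1-3 libraries. It holds the reads of gene copies that cannot be told apart, AT1G59359 (RPS2) among them, and how many of its reads came from 40S genes was not tested.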

How the results depend on the processing

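The number of 40S genes called higher was 38 to 51 over the 12 alternatives to the fit, and 39 of the 42 genes kept their call in every alternative that tested them. The number called lower was 4, and 3 by DESeq2. It was 1 by library totals and 1 with a filter of 1 CPM in 3 libraries. Leaving out a library gave 1 to 4 (1 without paps1-3 A, 2 without wild type A) for lower calls and 40 to 45 for higher calls. By totals the sign of these log2 fold changes turned, to 0.98 (AT3G04770), 0.83 (AT2G17360), 0.54 (AT3G02560), 0.92 (AT3G60770) and 0.55 (AT4G00100). AT5G41520 was at −0.18 to 0.26 when a library was left out, and at 1.32 and called by totals. The cause was not tested. Of 522 values of 44 single genes under an alternative, 491 stayed on their side of the threshold, 16 lost and 8 gained a call, and 7 changed sign.

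The share ratio was 5.57 to 6.34 when a library was left out, and the summed level with TMM scaling, an alternative chosen after seeing the data, gave 2.53. Non-overlapping pairs numbered 38 to 44, and proteins with another leading gene 6 to 9. With the library letter as a replicate block, 42 were higher and 4 lower. The deviations of same-lettered libraries had correlations of 0.263, 0.0822 and 0.0935 for A, B and C. Those of libraries with different letters ran from −0.172 to 0.104, so only letter A stood above all of them. Letters carry no stated meaning. Wild-type counts under 10 in all, found for 23 of the 60 genes, limit the precision of their ratios.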
